A study of Mus musculus with 2 samples.

Results

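The regulatory cytokine and checkpoint genes described here were 8 named genes of the 32285 in the count tables, picked by symbol: the cytokine genes Il10, Tgfb1 and Ebi3, and the checkpoint genes Lag3, Cd274, Pdcd1lg2, Tigit and Ctla4. All 8 were present in the tables. They were measured by single-cell RNA sequencing in eYFP+ cells sorted from the stromal vascular fraction of perigonadal white adipose tissue (gWAT) of male Cyp1a1 fate reporter mice, Cyp1a1Cre x R26LSL-eYFP. Cyp1a1 is switched on by the ligand-activated transcription factor AHR, the aryl hydrocarbon receptor, and in these mice a cell that has switched it on keeps the eYFP label, so the sort was for cells with past Cyp1a1 activity, and eYFP- cells were not part of the samples. For 12 weeks the mice ate purified food holding 10% fat (low-fat diet, LFD) or 60% fat (high-fat diet, HFD), and those of both groups were given FICZ, which activates AHR, in a dose of 10 mg/kg when 5 days remained until collection of the tissue. Each diet gave 1 library, made from 2 pooled mice, and cells within a library are not replicates, so the intervals below cover counting error only, no difference between diets was tested, and the diet and the library cannot be told apart.

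Interleukin-10, encoded by Il10, dampens the activation of macrophages and dendritic cells and is made by regulatory B cells, plasma cells and several kinds of T cell and macrophage. TGF-beta 1 (Tgfb1) is made widely and restrains lymphocytes, and EBI3 (Ebi3) is a subunit shared by the cytokines IL-27 and IL-35. CTLA-4 (Ctla4) takes the ligands CD80 and CD86 away from the costimulatory receptor CD28, LAG-3 (Lag3) and TIGIT (Tigit) are inhibitory receptors of lymphocytes, and PD-L1 (Cd274) and PD-L2 (Pdcd1lg2) are the ligands of the inhibitory receptor PD-1 (Pdcd1). Plasma cells are the antibody-secreting descendants of B cells.

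After the cell filter of the study's methods, 10216 LFD and 8537 HFD cells remained, with medians of 10636.5 and 13231 unique molecular identifiers (UMIs) per cell. Cell types were called from marker detection: a cell needed a UMI of at least 3 of the 6 listed genes of a type and at least 2 more than for any other type, and plasma cells were allowed to keep B cell markers. This gave 430 LFD and 1453 HFD plasma cells, 1093 and 772 B cells, 58 and 51 T cells, 498 and 471 macrophages, and 5693 and 3907 stromal cells. Plasma cells of both libraries had a median of 5 of their 6 markers and stromal cells 3 or 4 of theirs, which follows in part from the rule and is no check on the names. Of the cells, 13.9% in the LFD and 11.7% in the HFD library stayed unassigned. The libraries shared 27 cell barcodes, 22 of them in cells that passed the filter in both and 0 in plasma cells of both. Doublets were kept in the values below. Levels are given as CPM, the share of a gene in all UMIs summed over the cells of a type in a library, scaled to 1000000 UMIs, with the exact 95% Poisson interval. CPM levels of different genes are not ranked against each other, though UMI counts are.

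The promoters of 3 members are printed because all the cells were sorted for past activity of an AHR target gene. The RefSeq table held the 250 bases before the start of 6 of the 8 members, Cd274, Pdcd1lg2, Tgfb1, Ebi3, Tigit and Ctla4. The letters GCGTG, the core to which AHR and its partner ARNT bind, were searched on both strands (CACGC on the other), and are in capitals where found. Of all 32851 promoter windows of this length in the table, 28.2% held the core on either strand. It occurred once in Cd274, read forward, and once in Tgfb1, read in reverse, and in no other of the 6 windows. The Ctla4 window ends at the RefSeq start, which lies inside the longer span that the GENCODE annotation used below gives this gene. Ctla4 is printed as the member of this set with the highest count in plasma cells. Coordinates and strand are those of GRCm38.p6, and letters run 5′ to 3′.
Ctla4, chr1:60908775-60909024, plus strand: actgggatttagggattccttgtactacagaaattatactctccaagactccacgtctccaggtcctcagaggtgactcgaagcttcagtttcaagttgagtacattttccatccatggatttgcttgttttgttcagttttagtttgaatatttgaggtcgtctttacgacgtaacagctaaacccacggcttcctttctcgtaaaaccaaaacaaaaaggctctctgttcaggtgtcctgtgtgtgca
Cd274, chr19:29367188-29367437, plus strand: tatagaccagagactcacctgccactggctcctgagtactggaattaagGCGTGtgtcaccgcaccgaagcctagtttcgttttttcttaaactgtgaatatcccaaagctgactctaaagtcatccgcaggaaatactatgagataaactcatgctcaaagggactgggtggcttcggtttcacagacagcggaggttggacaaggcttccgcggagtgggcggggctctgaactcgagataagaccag
Tgfb1, chr7:25686752-25687001, plus strand: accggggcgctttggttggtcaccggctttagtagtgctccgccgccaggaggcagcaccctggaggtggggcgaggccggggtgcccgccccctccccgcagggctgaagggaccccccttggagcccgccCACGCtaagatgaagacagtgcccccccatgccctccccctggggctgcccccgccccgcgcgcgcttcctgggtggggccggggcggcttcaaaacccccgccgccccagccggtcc
A match is a description of these letters only, and binding of AHR was not measured in these libraries.

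By the GENCODE M21 annotation of GRCm38, Lag3 lies on chromosome 6 at 124904361 to 124911705, Tigit on chromosome 16 at 43648867 to 43664146, Cd274 and Pdcd1lg2 on chromosome 19 at 29367455 to 29388095 and 29410919 to 29471161, Tgfb1 on chromosome 7 at 25687002 to 25705077 and Ebi3 on chromosome 17 at 55952640 to 55957022.

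Il10 was concentrated in plasma cells. Il10, at position 131019845 to 131024974 on chromosome 1 of mm10, gave 302 UMIs in LFD and 1406 UMIs in HFD plasma cells, levels of 51.3 CPM (interval 45.7 to 57.5) and 63.8 CPM (60.5 to 67.2). Macrophages came next with 11.4 CPM (7.66 to 16.4) and 20.6 CPM (16.1 to 26.1), 4.49-fold and 3.09-fold below the plasma cells, and the intervals did not overlap in either library. B cells, from which plasma cells arise, held only 6 and 19 Il10 UMIs, or 1.12 and 4.73 CPM. In T cells there were 2 Il10 UMIs in each library, all in 1 cell of each, with intervals that reached up to 30.8 and 39.3 CPM, below the plasma cells but overlapping macrophages and B cells. This order did not hold when a margin of 1 marker was enough to name a cell, since Il10 was then at 90.9 CPM (58.8 to 134) in HFD T cells, against 62.9 CPM (59.7 to 66.2) in HFD plasma cells, which overlaps, and at 27.9 CPM in LFD T cells. Ighm, the heavy chain of IgM and a plasma cell transcript, was at 13309 CPM in HFD against 362 CPM in LFD T cells under the main rule. A single HFD T cell held 2347 of these 2448 Ighm UMIs and both Il10 UMIs, so that without it HFD T cells had 0 Il10 UMIs. Stromal cells gave 0.716 and 1.38 CPM.

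Within plasma cells, Il10 was uneven from cell to cell. At least 1 Il10 UMI was seen in 124 of 430 LFD plasma cells, 28.8% (exact Clopper-Pearson interval 24.6 to 33.4%), and in 393 of 1453 HFD plasma cells, 27.0% (24.8 to 29.4%). When each cell was thinned to 5000 UMIs, which left out 15 and 41 shallower cells, the shares were 16.4% (12.9 to 20.3%) and 15.8% (13.9 to 17.8%). Both pairs of intervals, which cover counting error only, overlap. For comparison, stromal cells, which are not known as a source of this cytokine, had an Il10 UMI in 0.720% of LFD and 1.64% of HFD cells at median depths of 12741 and 16991 UMIs, against 12298 and 13678 UMIs in plasma cells. A small share of the cells carried much of the transcript. The 21 LFD plasma cells with 5 or more Il10 UMIs, 4.88% of them, held 151 of the 302 Il10 UMIs, and the 84 such HFD cells, 5.78%, held 63.5%. The highest count in a single cell was 12 in the LFD and 34 in the HFD library.

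Ctla4, on chromosome 1 at 60887000 to 60915832, was the member with the most UMIs in plasma cells. It gave 457 UMIs, 77.7 CPM (70.7 to 85.2), in LFD and 1677 UMIs, 76.1 CPM (72.5 to 79.8), in HFD plasma cells, and 46.0% and 47.1% of these cells had a UMI. T cells were higher in both libraries, at 302 CPM (236 to 381) and 375 CPM (292 to 475). Of the other 3 main types, B cells followed at 18.8 and 17.2 CPM, and macrophages and stromal cells lay at 1.79 CPM or below. Outside these types, the 34 LFD dendritic cells held 8 Ctla4 UMIs, 31.3 CPM (13.5 to 61.8), and the HFD ones 0. Among T cells, those with a UMI of Foxp3, the master transcription factor of regulatory T cells, held 28 Ctla4 UMIs in 17 LFD cells and 31 in 9 HFD cells. Their Ctla4 level was 1.91 times (interval 1.143 to 3.15) and 1.74 times (1.04 to 2.87) that of the other T cells. Foxp3 itself gave 0 UMIs in LFD and 1 UMI in HFD plasma cells. Plasma cells with no UMI of any T cell or macrophage marker, 90.7% of LFD and 90.0% of HFD plasma cells, had Ctla4 levels of 80.9 and 74.3 CPM and Il10 levels of 54.7 and 58.6 CPM. A Ctla4 UMI was seen in 0.351% and 0.665% of stromal cells. The Ctla4 gene overlaps a pseudogene on the same strand, Rpl18-ps1, and reads in their shared part may not have been counted.

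The other checkpoint receptors, Lag3 and Tigit, gave fewer UMIs in plasma cells. Lag3 gave 37 UMIs, 6.29 CPM (4.43 to 8.67), in LFD and 91 UMIs, 4.13 CPM (3.32 to 5.07), in HFD plasma cells. T cells had nominally more, 17.0 and 10.9 CPM, but on 4 and 2 UMIs, and their intervals overlap those of plasma cells. Stromal cells held 202 and 125 Lag3 UMIs, levels of 2.63 and 1.83 CPM. Tigit was at the limit of detection everywhere: 2 and 6 UMIs in plasma cells, 1 and 1 in stromal cells, and 0 in B cells, T cells and macrophages. In T cells, 3 UMIs, the limit taken for a count of 0, would be 12.8 CPM in the LFD and 16.3 CPM in the HFD library, and the exact intervals reach 15.7 and 20.1 CPM, so T cell expression of Tigit could not be assessed at this depth.

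Cd274, Pdcd1lg2 and Tgfb1 had higher levels in B cells than in plasma cells of both libraries, and Ebi3 in the HFD library alone. Cd274 was at 15.1 and 17.1 CPM in plasma cells, against 24.6 and 41.3 CPM in B cells and 32.3 CPM in macrophages of each library. Outside these 5 types, Cd274 was at 55.2 CPM from 20 UMIs and 195 CPM from 10 UMIs in neutrophils, and at 43.1 and 42.7 CPM in dendritic cells. Pdcd1lg2 had 9 and 22 UMIs in plasma cells, 1.53 and 0.998 CPM, against 10.3 CPM (7.73 to 13.4) and 24.4 CPM (19.8 to 29.7) in B cells. Beyond the 5 types it reached 94.0 CPM, from 24 UMIs, in the 34 LFD dendritic cells, 32 of which had no more than the minimum of 3 markers, against 29.2 CPM in the HFD ones, 49 of 51 of which were at that minimum. In type 2 innate lymphoid cells it was at 31.0 CPM in the LFD and 64.8 CPM, from 26 UMIs, in the HFD library. Of the 5 types Tgfb1 was highest in macrophages, at 229 CPM (210 to 248) and 230 CPM (214 to 247). Outside the 5, type 2 innate lymphoid cells were at 244 CPM (210 to 282) in the LFD library, overlapping the macrophages. In the HFD library they lay above the macrophages, at 334 CPM (280 to 396). B cells followed at 134 and 165 CPM and T cells at 115 and 130 CPM, while plasma cells, at 26.7 and 19.1 CPM, lay near the stromal cells, at 18.2 and 12.9 CPM. Ebi3 gave 14.5 CPM (11.5 to 17.9) and 9.57 CPM (8.32 to 10.95) in plasma cells, 10.4 and 18.4 CPM in B cells and 28.4 and 18.8 CPM in macrophages, 21.3 and 54.4 CPM in T cells from 5 and 10 UMIs, and nearly none in stromal cells, 2 and 7 UMIs. LFD neutrophils had the highest Ebi3 level of that library, 77.3 CPM from 28 UMIs, while the 46 HFD neutrophils had 0 UMIs, with an interval up to 72.1 CPM. Cd274, Pdcd1lg2 and Ebi3 each overlap an antisense gene. The strand used in counting is not given in the sources used here, so reads in those overlaps carry this doubt.

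**Figure D1:**
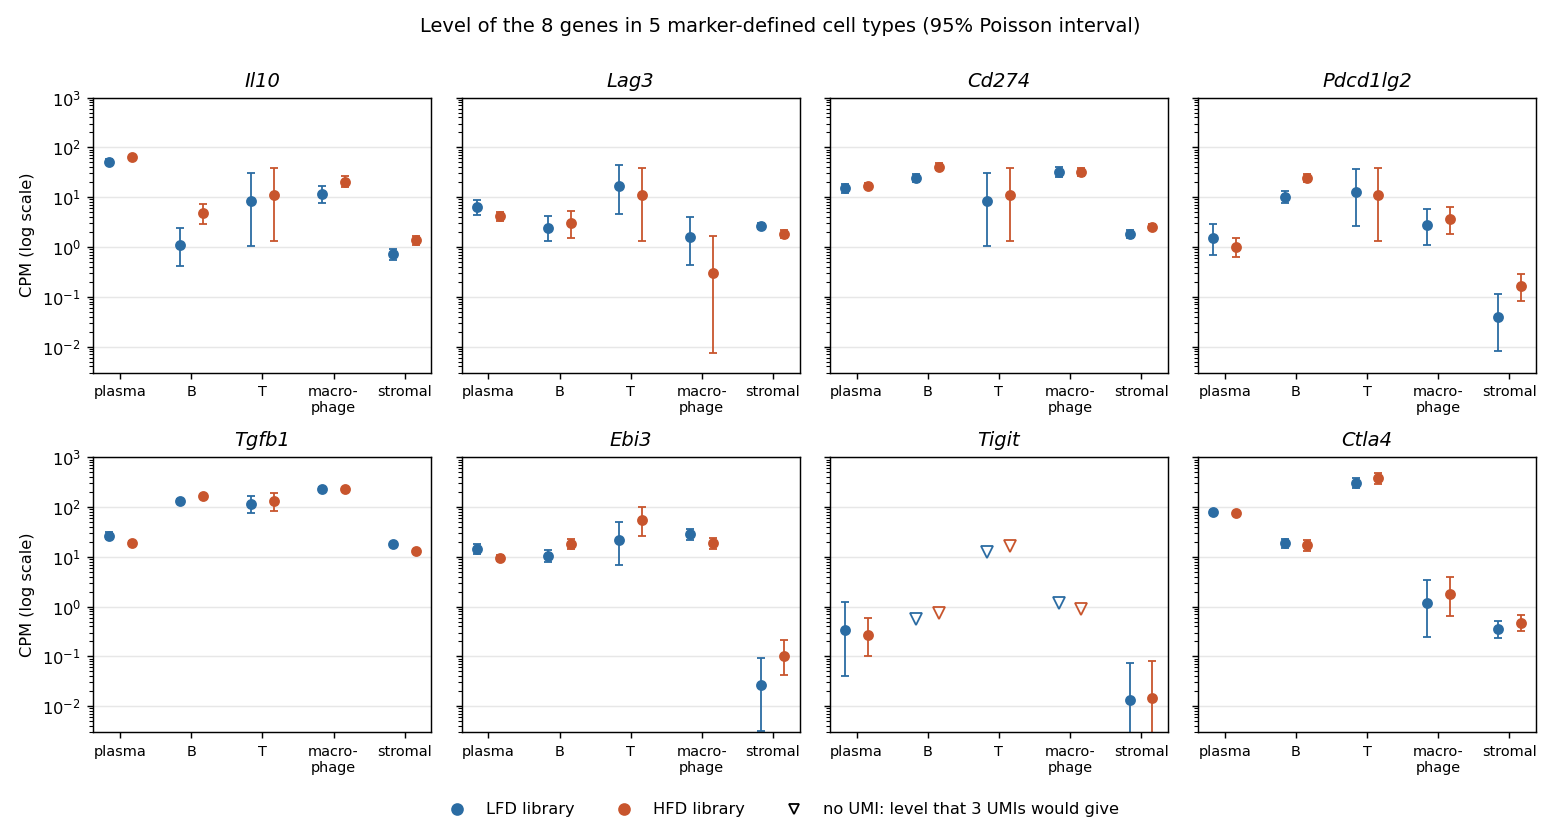
CPM (log scale) of the 8 genes in plasma cells, B cells, T cells, macrophages and stromal cells of the LFD (blue) and HFD (orange) libraries; bars are 95% Poisson intervals and open triangles mark the level that 3 UMIs would give where no UMI was seen. Il10 is highest in plasma cells in both libraries and Ctla4 in T cells, with plasma cells next.

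Stromal cells, which should lack plasma cell transcripts, show how far these occurred outside plasma cells. The stromal level of Jchain, the antibody joining chain and one of the plasma cell markers used to name the cells, was 0.169% of the plasma cell level in the LFD and 0.292% in the HFD library, and that of Ighm was 0.157% and 0.280%. A single LFD stromal cell held 2137 of the 7595 stromal Ighm UMIs, and without it the level was 71.0 rather than 98.8 CPM. In the HFD library the top cell held 953 of 15739, and the level without it was 217 rather than 231 CPM. Ebi3 in stromal cells was at 0.180% (0.0215 to 0.671%) and 1.07% (0.426 to 2.25%) of its plasma cell level, and the LFD interval includes the antibody genes. Ctla4 was at 0.452% (0.295 to 0.667%) and 0.617% (0.421 to 0.875%), and Il10 at 1.39% (1.03 to 1.86%) and 2.16% (1.74 to 2.67%). Pdcd1lg2, at 2.55% and 16.2%, and Tigit, at 3.83% and 5.39%, rest on few UMIs. The shares were larger for Cd274, at 12.0% and 14.6%, Lag3, at 41.8% and 44.4%, and Tgfb1, at 68.1% and 67.5%. Stromal cells with up to 8 Il10 UMIs occurred in each library. The part of free RNA and of doublets in these counts was not tested.

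To ask which members set plasma cells apart from B cells, the CPM ratio of plasma cells to B cells was taken in each library, and a gene was called when it was at least 2-fold in the same direction in both libraries. Il10 and Ctla4 were higher in plasma cells, and Pdcd1lg2 and Tgfb1 were lower. Il10 was 45.9-fold (20.8 to 126) higher in the LFD and 13.5-fold (8.60 to 22.5) in the HFD library, or 15.6-fold and 7.24-fold with at least 4 of 6 markers required, and Ctla4 4.13-fold (3.32 to 5.17) and 4.43-fold (3.48 to 5.72). The ratio of Pdcd1lg2 was 0.149 (0.0648 to 0.304) and 0.0409 (0.0245 to 0.0655), and that of Tgfb1 0.199 (0.167 to 0.237) and 0.116 (0.102 to 0.131). Cd274 ratios of 0.615 and 0.415, Lag3 ratios of 2.59 and 1.38 and Ebi3 ratios of 1.38 and 0.520 did not pass in both libraries, and Tigit had too few UMIs. So 2 of 7 members tested were higher and 2 lower, where 5.45% of the 10725 genes tested were higher and 26.1% lower. The count of lower members is near that background. The median gene had a ratio of 0.688 in the LFD and 0.584 in the HFD library. With immunoglobulin genes left out of the totals, Lag3 ratios were 3.47 (1.80 to 7.12) and 2.06 (1.12 to 4.13) and passed the fold. Cd274 ratios were then 0.822 (0.621 to 1.08) in the LFD library, an interval that includes 1, and 0.618 (0.513 to 0.746) in the HFD library.

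**Figure D2:**
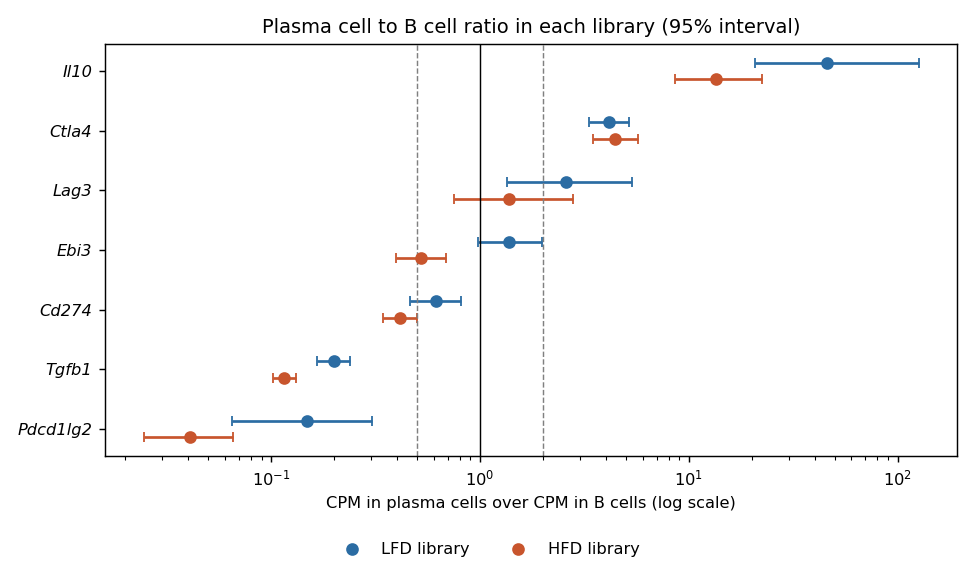
Ratio of CPM in plasma cells to CPM in B cells (log scale) for the 7 members with enough UMIs, in the LFD (blue) and HFD (orange) library; bars are 95% intervals, dashed lines mark 0.5 and 2. Il10 and Ctla4 lie right of 2 and Tgfb1 and Pdcd1lg2 left of 0.5 in both libraries.

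Partner genes from a list of receptors and ligands were read in the same way. Of the 17 tested of 23, 2 were higher in plasma cells and 11 lower. The higher ones were Pdcd1, the receptor of both PD-1 ligands, at 4.42 against 1.12 CPM in the LFD and 3.72 against 0.249 CPM in the HFD library, and Cd28, with 132 and 513 UMIs in plasma cells and 1 and 0 in B cells. Among the lower ones, Cd80 and Cd86, the ligands of CTLA-4, had ratios of 0.0278 and 0.0241 in the LFD and 0.0306 and 0.0136 in the HFD library. Il10ra, the ligand-binding chain of the IL-10 receptor, had ratios of 0.0422 and 0.0375. H2-Aa, an MHC class II gene and a ligand of LAG-3, had 0.0428 and 0.0242. The others were Icosl, Tgfb2, Tgfb3, Tgfbr2, Il27ra, Pvr and Lgals3. Of 14 further inhibitory receptors and ligands, 9 were tested. Vsir, encoding the checkpoint VISTA, was 6.32-fold and 5.12-fold higher in plasma cells, and Entpd1, encoding the ATP-degrading enzyme CD39, 3.79-fold and 2.65-fold. Lgals9, Btla, Cd200, Nt5e, Lilrb4a and Pirb were lower. Of 9 transcription factors tied to Il10 or regulatory T cells, 7 were tested, 0 were higher, and Ahr, Bhlhe40, Batf and Stat3 were lower, with Ahr ratios of 0.267 and 0.191. Ighm and Igha were higher and Ighd lower among 5 heavy chain genes tested, and of 7 B-1 genes tested Bhlhe41, Zbtb32, Cd5 and Plac8 were lower.

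B-1 cells are innate-like B cells of the body cavities that readily become IgM plasma cells. B cells with a UMI of at least 3 of 7 B-1 genes, 428 in the LFD and 355 in the HFD library, had more Ctla4 than the other B cells, 28.5 against 10.5 CPM and 23.9 against 8.89 CPM. The ratio was 2.72 (1.75 to 4.32) and 2.68 (1.51 to 5.03). Plasma cells were still above them, 2.73-fold (2.12 to 3.56) and 3.19-fold (2.42 to 4.27). Il10 did not follow this order, with 2 and 13 UMIs in the B cells with B-1 genes and 4 and 6 in the others. Lag3 had 12 against 1 UMI in the LFD but 7 against 5 in the HFD library. Cd274, Pdcd1lg2, Tgfb1 and Ebi3 had ratios between 0.851 and 1.19, each with an interval that includes 1.

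The question of whether plasma cells with Il10 also carry the other regulatory genes was taken up by splitting plasma cells into those with at least 1 Il10 UMI and those with none, and a gene was called when it differed at least 1.5-fold in the same direction in both libraries. Ctla4 and Lag3 were higher in Il10-positive plasma cells, and Cd274 and Tgfb1 were not. Ctla4 stood at 101 against 66.9 CPM in the LFD library, a ratio of 1.51 (1.25 to 1.82), and at 107 against 63.0 CPM in the HFD library, 1.69 (1.53 to 1.87). Lag3 had 18 and 19 UMIs in the 124 positive and 306 negative LFD cells, 9.61 against 4.74 CPM, a ratio of 2.03 (1.00 to 4.08). In the HFD library it had 45 and 46 UMIs in 393 and 1060 cells, 6.82 against 2.98 CPM, 2.29 (1.48 to 3.53). Ebi3 ratios were 1.43 (0.896 to 2.24) and 1.43 (1.07 to 1.90), below the fold. Cd274 ratios were 0.883 (0.536 to 1.42) and 0.973 (0.772 to 1.22), and Tgfb1 ratios 1.03 (0.722 to 1.45) and 0.966 (0.776 to 1.20). Pdcd1lg2 and Tigit had too few UMIs to be tested.

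Thus 2 of the 5 other members tested were called higher, where 0.213% of the 8928 genes tested were higher and 0.762% lower, with median ratios of 0.969 and 1.02. Of the 4412 genes with at least 100 UMIs in plasma cells of each library, Ctla4 was the single one past 1.5-fold higher in both, at a ratio in the LFD library that lies at the fold itself. Its call did not hold in 5 of 11 alternative settings, in which the ratio of 1 library fell below 1.5, yet its ratios ranged from 1.35 to 1.96 in the LFD and 1.45 to 2.08 in the HFD library and so stayed above 1 in all 11. With Il10-positive cells taken as those with at least 2 Il10 UMIs, Ctla4 ratios were 1.96 (1.55 to 2.46) and 2.08 (1.86 to 2.32). Lag3 then had ratios of 1.05 (0.261 to 3.17) and 2.82 (1.72 to 4.56) and was no longer called. In plasma cells not in cycle, Ctla4 ratios were 1.82 and 1.45 and Lag3 had too few UMIs.

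Il10-positive cells were deeper than Il10-negative ones, with medians of 14421.5 against 11849 UMIs and 15620 against 13098.5 UMIs, so shares of cells were also compared after thinning each cell to 5000 UMIs. A Ctla4 UMI was then present in 34.7% (26.4 to 43.7%) of 124 Il10-positive and 25.4% (20.5 to 30.8%) of 291 Il10-negative LFD plasma cells, and without thinning in 53.2% and 43.1%. In the HFD library the thinned shares were 32.9% (28.3 to 37.8%) of 389 and 24.0% (21.5 to 26.8%) of 1023 cells, which do not overlap, and the unthinned ones 57.0% and 43.5%. Lag3 was found in 4.03% against 2.75% and 3.34% against 1.56%, and Ebi3 in 7.26% against 5.84% and 5.91% against 2.93%, with overlapping intervals in each library. Cd274 shares were 8.06% against 8.59% and 8.997% against 7.72%, and Tgfb1 shares 13.7% against 12.4% and 7.46% against 8.70%.

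The overlap was partial in either direction. Both an Il10 and a Ctla4 UMI were seen in 66 LFD plasma cells, 15.3% of all, and in 224 HFD plasma cells, 15.4%, and neither was seen in 174 and 599 cells, 40.5% and 41.2%. Of Ctla4-positive cells, 198 and 685 in all, most thus lacked an Il10 UMI at this depth. At least 2 of Lag3, Cd274, Pdcd1lg2, Ebi3, Tigit and Ctla4 were detected in 26.6% of Il10-positive against 17.6% of Il10-negative LFD cells. In HFD cells the shares were 29.5% and 16.6%. These shares are unthinned and so carry the depth difference above, and Tgfb1 was left out of this count.

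**Figure D3:**
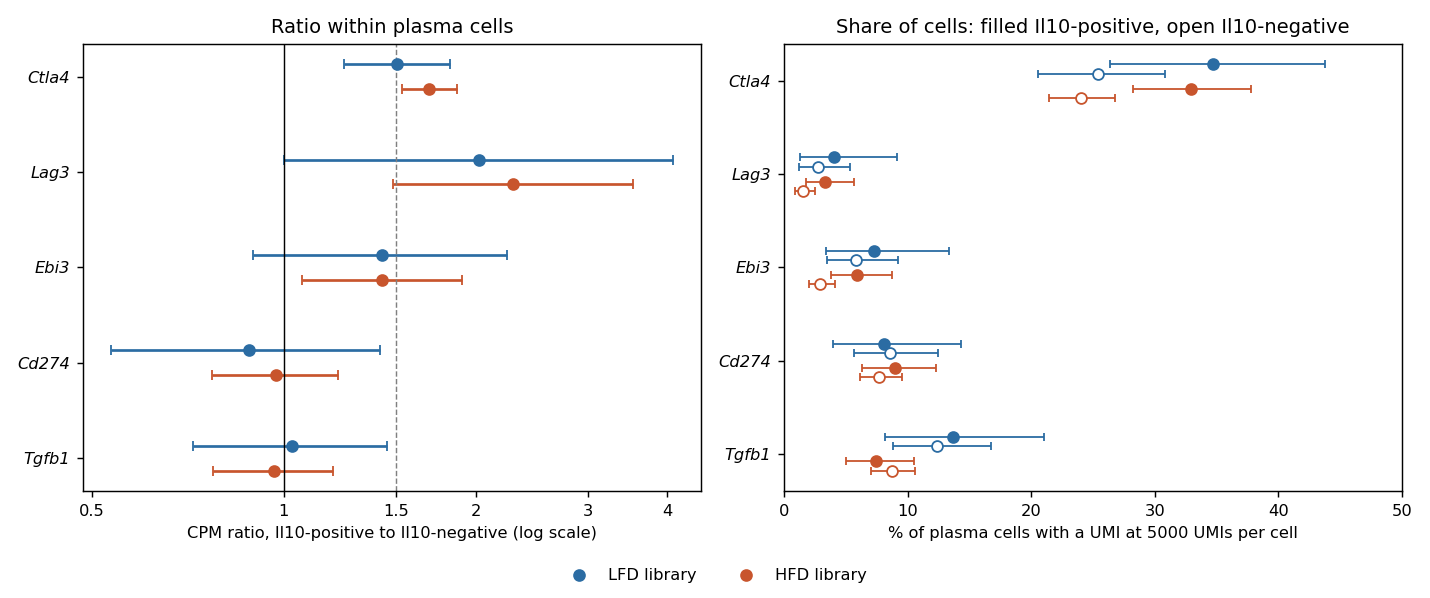
Left, CPM ratio (log scale) of Il10-positive to Il10-negative plasma cells for the 5 other members tested, with the dashed line at 1.5; right, percent of plasma cells with a UMI of each gene after thinning to 5000 UMIs, filled for Il10-positive and open for Il10-negative cells. Blue is LFD, orange is HFD, bars are 95% intervals. Ctla4 and Lag3 lie at or above 1.5 in both libraries, and Cd274 and Tgfb1 lie near 1.

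Among the partner lists in this split, Pdcd1 was higher in Il10-positive cells, 8.01 against 2.74 CPM in the LFD library, a ratio of 2.92 (1.25 to 7.02), and 6.51 against 2.52 CPM in the HFD library, 2.58 (1.63 to 4.09). It rests on 26 and 82 UMIs. Lgals3, whose product binds LAG-3 among other glycoproteins, was lower, at 0.254 (0.165 to 0.376) and 0.436 (0.307 to 0.605), as was H2-Aa, at 0.562 and 0.613. These were 3 of 10 tested in that list. Of the 5 further inhibitory genes tested 0 were called, and of 7 transcription factors Bhlhe40, a repressor of Il10, was lower, at 0.315 (0.0960 to 0.809) and 0.657 (0.352 to 1.16). Zbtb32, a B-1 gene and a transcriptional repressor, had ratios of 0.186 and 0.576, 1 of 5 B-1 genes tested. Of 6 cell cycle genes 0 were called.

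Igha, the heavy chain gene of IgA, was the lowest of all the genes considered, with 2 of 5052 LFD and 16 of 2476 HFD plasma cell UMIs in Il10-positive cells. By their dominant heavy chain gene, 416 of 430 LFD and 1445 of 1453 HFD plasma cells were IgM, and 7 in each library were IgA. Il10 was not seen in any of the 14 cells of IgA isotype, where 3 UMIs would be 24.6 CPM in the LFD and 51.7 CPM in the HFD library and the exact intervals reach 30.2 and 63.5 CPM. Every Il10 UMI of plasma cells lay in cells of IgM isotype. After Igha and Lgals3, the lowest genes were Dmkn, encoding the secreted protein dermokine, at 0.212 and 0.503, Cox6a2, a subunit of cytochrome c oxidase, at 0.346 and 0.547, and Mt2, a metallothionein, at 0.542 and 0.559. A total of 12 genes were lower by this rule.

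Plasma cells in cycle, those with a UMI of at least 3 of 6 cell cycle genes, were 57.4% of LFD and 46.9% of HFD plasma cells. They had less Ctla4 than the others, 72.0 against 89.8 CPM, a ratio of 0.802 (0.661 to 0.976), and 67.6 against 87.3 CPM, 0.774 (0.703 to 0.853). Cd274 was lower in cycling cells too, with ratios of 0.577 (0.372 to 0.899) and 0.809 (0.657 to 0.995), and Lag3 had 0.618 (0.307 to 1.27) and 0.432 (0.273 to 0.673). Tgfb1 had ratios above 1, 1.33 (0.925 to 1.95) and 1.48 (1.20 to 1.82). Il10 ratios lay on opposite sides of 1 with intervals that include it, 0.799 and 1.09 (0.976 to 1.21). Plasma cells in which at least 3 B cell markers were detected, 21.9% and 17.8% of them, had more Tgfb1 than the rest in both libraries, 1.64-fold (1.15 to 2.32) and 2.08-fold (1.69 to 2.55). Their median depth was 11859.5 against 12351 UMIs in the LFD and 16811 against 13242 UMIs in the HFD library. The part of doublets of plasma cells and B cells in this subset was not tested. In the HFD library the plasma cells with these markers also had more Il10, 83.7 against 58.8 CPM, Cd274, 22.2 against 15.9 CPM, Ebi3, 15.2 against 8.16 CPM, and Pdcd1lg2, 2.72 against 0.567 CPM on 22 UMIs. In the LFD library these 4 ratios were 1.03, 0.794, 0.973 and 2.90, each with an interval that includes 1, while Lag3, at 2.20 (1.05 to 4.47), and Ctla4, at 1.29 (1.04 to 1.59), had intervals above 1 there and ratios of 0.987 and 1.06, with intervals that include 1, in the HFD library.

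Between the diets, 0 of 7 members tested in plasma cells differed by the rule of at least 2-fold, where 8.57% of 11524 genes did, a count near that background. For Il10, Tgfb1, Ebi3 and Lag3 the counting interval did not include 1, and the share of all genes with such an interval was not computed. The Il10 level was 1.24 times (1.10 to 1.41) as high in the HFD as in the LFD library and that of Ctla4 0.979 times (0.882 to 1.09). Tgfb1, at 0.715 (0.594 to 0.865), Ebi3, at 0.662 (0.512 to 0.862), and Lag3, at 0.656 (0.443 to 0.989), were nominally lower in the HFD library, against a median gene ratio of 0.908. Cd274 stood at 1.13 and Pdcd1lg2 at 0.652, with intervals that include 1. Immunoglobulin UMIs are part of the totals behind these ratios. With them left out, Lag3 was at 8.53 CPM in the LFD and 6.22 CPM in the HFD library, and Ebi3 at 19.6 and 14.4 CPM. Tgfb1 was then at 36.2 and 28.8 CPM and Il10 at 69.6 and 96.2 CPM. Over 10 alternatives the Lag3 ratio ranged from 0.533 to 0.829, and its main interval ends near 1. Plasma cells made up 4.21% of the filtered cells in the LFD and 17.0% in the HFD library.

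In B cells, Il10 and Pdcd1lg2 were called higher in the HFD library among 7 members tested, and 5.68% of 10818 genes were called either way. The minimum of 20 UMIs applied to both libraries together, and Il10 met it mainly through its 19 HFD UMIs. Its entry was thus tied to the outcome, and the count of called members cannot be weighed against that share. The Pdcd1lg2 ratio was 2.38 (1.69 to 3.37), from 55 and 98 UMIs in 53 and 85 cells. That of Il10 was 4.23 (1.62 to 12.9), from 6 UMIs in 6 LFD cells and 19 UMIs in 9 HFD cells, of which 1 HFD cell held 6. Cd274, at 1.68 (1.33 to 2.13), and Ebi3, at 1.76 (1.23 to 2.54), were below the fold but nominally higher. Ctla4 had a ratio of 0.912 (0.661 to 1.25). Cd86 was higher as 1 of 15 receptor and ligand genes tested, Nt5e as 1 of 10 further inhibitory genes, and Nfil3 and Bhlhe40 as 2 of 7 transcription factors. Ighg2b was lower as 1 of 5 heavy chain genes, and 0 of 6 B-1 genes and 0 of 6 cell cycle genes were called.

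In T cells 0 of 2 members tested were called, against 12.3% of 3225 genes, with ratios of 1.24 for Ctla4 and 1.135 for Tgfb1. In macrophages 0 of 4 were called, against 6.25% of 10067 genes. The macrophage Il10 ratio was 1.80 (1.15 to 2.89), that of Ebi3 0.664 (0.466 to 0.944), and those of Cd274 and Tgfb1 were 0.999 and 1.01. Macrophage Ighm went from 128 to 977 CPM, or to 679 CPM without the 1 HFD macrophage with 1007 Ighm UMIs, which held no Il10 UMI, and 4 of 6 cell cycle genes, Mki67, Top2a, Ube2c and Cdk1, were called higher in HFD macrophages. Their part in the Il10 ratio was not tested. In stromal cells 0 of 5 were called, against 7.62% of 15569 genes. There Il10 had a ratio of 1.93 (1.37 to 2.74) from 55 and 94 UMIs, and stromal Ighm was also at least 2-fold higher in the HFD library. In stromal cells 5 of 20 receptor and ligand genes tested (Pdcd1, Cd80, Cd86, Icos and Il27ra), 4 of 12 further inhibitory genes (Havcr2, Cd200r1, Entpd1 and Lilrb4a) and 1 of 6 B-1 genes (Spn) were also past 2-fold with higher values in the HFD library, Cd80 at 5.77 (3.77 to 9.15) and Entpd1 at 4.43 (2.48 to 8.42), and Il10ra, Ighd and Igha were past it with lower values. For Pdcd1 and Havcr2 the interval includes 1. Many of these genes are best known from immune cells, and the part of Ighm and of these genes in the Il10 ratio was not tested. Lag3, at 0.698 (0.554 to 0.876), and Tgfb1, at 0.709 (0.651 to 0.772), were nominally lower. The Tgfb1 ratio ranged from 0.656 to 0.868 over 10 alternatives. Of stromal cells, 51.0% in the LFD and 20.4% in the HFD library had no more than the minimum of 3 markers. In endothelial cells 1 of 3 members tested was called, against 9.26% of 11722 genes. This was Cd274, at 6.68 CPM in the LFD and 16.2 CPM in the HFD library, a ratio of 2.43 (1.55 to 3.87) from 32 and 57 UMIs. Of the list genes in endothelial cells, Ighm (2.56), Spn (9.09) and Tgfb3 (2.05) were also past 2-fold with higher values in the HFD library. Birc5 (0.330), Ccna2 (0.360), Cdk1 (0.497), Ube2c (0.481) and Cd86 (0.325) were past it with lower values. Their part in the Cd274 ratio was not tested.

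**Figure D4:**
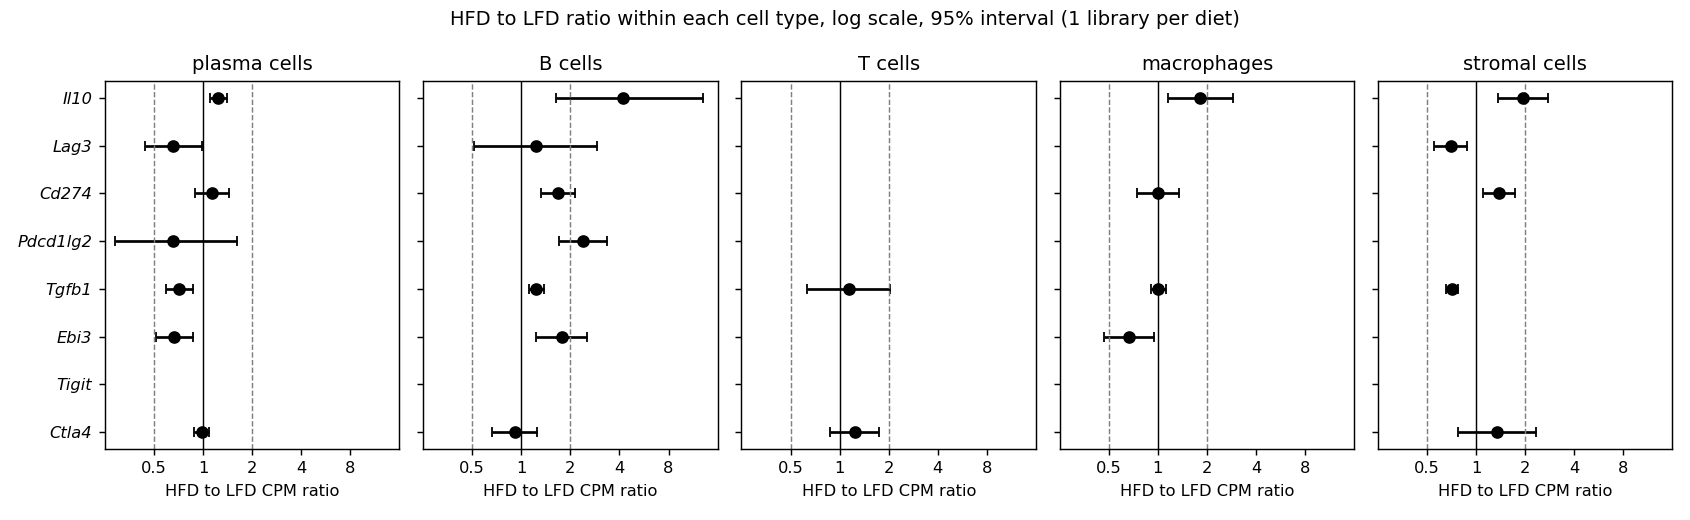
Ratio of CPM in the HFD to the LFD library (log scale) for each member with at least 20 UMIs in plasma cells, B cells, T cells, macrophages or stromal cells; bars are 95% intervals, dashed lines mark 0.5 and 2, and there is 1 library per diet. Il10 and Pdcd1lg2 in B cells are the only points beyond 2 in these 5 types.

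In plasma cells, 3 of 16 genes tested in the receptor and ligand list were past the fold, with lower values in the HFD library, namely Lgals3, from 44.9 to 12.4 CPM, Nectin2, a ligand of TIGIT, from 11.2 to 4.35 CPM, and Tgfb3, at 0.474 (0.197 to 1.22) on 25 UMIs in all. The list of further inhibitory genes had Nt5e, at 0.485 (0.222 to 1.12), and Pirb, at 0.480 (0.210 to 1.16), past the fold among 9 tested. For these 2 genes and Tgfb3 the interval includes 1. Bhlhe40 was 1 of 7 transcription factors, at 6.63 and 3.31 CPM. Plac8 was 1 of 6 B-1 genes, at 133 and 60.0 CPM, and Igha, Ighg2b and Ighg3 were lower among 5 heavy chain genes. These 3 rest on few cells, since the LFD library had 7 plasma cells of Igha, 3 of Ighg2b and 1 of Ighg3 isotype, and 1 LFD cell held 260 of the 277 Ighg3 UMIs. Of the genes tested in these lists 0 were higher by 2-fold, and of 6 cell cycle genes 0 were called. Genes under 20 UMIs were not tested, among them Ikzf2, with 16 HFD UMIs and 0 LFD UMIs.

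Taking the 7 cell types that had 50 cells or more in each library, 14 points in all, the genes whose log2(CPM + 1) levels followed Il10 most closely among 15172 genes were Pqlc3 (Pearson r = 0.941), Slamf7 (0.933), Galns (0.885), Ly6c2 (0.884) and Enpp1 (0.862). Slamf7 encodes a surface receptor of plasma cells and lymphocytes. For Lag3 they were Fam118a (0.935), Hist1h4h (0.918), Btbd8 (0.909), Nsmce2 (0.906) and Cntd1 (0.905). Lag3 and Il10 themselves correlated at 0.307. The highest Lag3 points are the T cells, on 4 and 2 UMIs. The points share libraries and depth, and plasma cells supply the highest Il10 values in both libraries, so these values describe likeness of pattern only.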

How the data were processed

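Single-cell RNA sequencing (10x 3′ v3) of sorted eYFP+ cells gave 1 library per diet, each of 2 pooled mice, with 11281 LFD and 9631 HFD barcodes and totals of 114311020 and 119498750 UMIs. The deposited values were raw UMI counts per gene and cell, which the authors made with Cell Ranger 4.0.0, and the submitters' processing notes also name STAR, bcl2fastq 2.17.1.14, Seurat 4.1.0 and mm10. Which annotation was used in counting is not given in the sources used here.

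Cells with 500 to 40000 UMIs, under 12.5% mitochondrial UMIs and at least 100 genes were kept, as in the study's methods, and cell types were assigned from lists of 6 markers. UMIs were summed per type and library. CPM intervals are exact Poisson, ratio intervals exact conditional binomial and share intervals exact Clopper-Pearson, all at 95%. A gene was tested against a fold with at least 20 UMIs. With 1 library per diet no p-values were computed. Thinning used seed 1. Doublets were scored with Scrublet in scanpy 1.11.5 and removed as an alternative only (922 LFD and 658 HFD cells). Analyses used python 3.11.15, numpy 2.4.6, scipy 1.17.1, pandas 2.3.3 and matplotlib 3.10.9, and the ratio and interval code was tested on simulated data. Of 32285 gene IDs, 32158 were found in GENCODE M21. Genes other than the members were named by rule: list genes past the fold in both libraries or, between diets, in plasma cells, up to 5 genes each way of at least 100 UMIs with the largest change in the Il10 split, and the 5 most alike in pattern. List genes named between diets in other cell types were chosen after their values were seen. The members and gene lists were chosen with earlier results of these data known.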

Additional observations from a re-analysis of the deposited data

Results flagged for a closer look

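In 4 pairs of cell types the HFD to LFD ratios of a gene lay on opposite sides of 1, each with an interval that did not include 1, although the differences were not tested because each diet had 1 library. The Tgfb1 ratio was 1.23 in B cells, 0.715 in plasma cells and 0.709 in stromal cells, so it was 1.72 times as high in B cells as in plasma cells and 1.74 times as high as in stromal cells. Over 10 alternatives the stromal ratio ranged from 0.656 to 0.868. The Ebi3 ratio was 1.76 in B cells, 0.662 in plasma cells and 0.664 in macrophages, 2.66 times as high in B cells as in either.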

How the results depend on the processing

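No paired analysis was possible because each diet had 1 library and no result comes from a replicate test. Of 988 values under alternatives, 910 moved by less than their interval or kept their count within 1.5 times, 78 moved and 0 changed direction after a call. The cause of the moves was not tested. Il10 and Ctla4 stayed higher and Pdcd1lg2 and Tgfb1 lower in plasma than in B cells in 6 of 6 alternatives, with Il10 ratios of 15.6 to 61.4 in the LFD and 7.24 to 20.1 in the HFD library, lowest with at least 4 of 6 markers.

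With a margin of 1 marker, the number of gene and library combinations highest in plasma cells, Tigit left out for its few UMIs, went from 2 to 1, as Il10 was then at 90.9 CPM in HFD T cells against 62.9 CPM in HFD plasma cells with overlapping intervals. Diet calls in the 5 main types went from 2 to 4, and genes higher in Il10-positive cells from 1 to 4. These diet calls were 6 with no minimum count and 1 with a minimum of 50, and the endothelial Cd274 call was not put to the alternatives. The Il10 share was 6.993% and 8.645% in LFD and HFD plasma cells thinned to 2000 UMIs, and 28.84% and 27.05% unthinned. With at least 2 Il10 UMIs asked for, it was 4.578% and 6.374% in cells thinned to 5000 UMIs, and 11.6% and 14.1% unthinned. Members called in the Il10 split went from 2 to 1 with at least 4 of 6 markers, without cells holding 3 or more plasma and 3 or more B cell markers, without Scrublet doublets, with Il10-positive meaning at least 2 UMIs, or in IgM cells alone, and to 0 without cycling cells. Genes higher in that split were 0 with 4 markers, without those double-marker cells or in IgM cells, 5 with at least 2 UMIs, 2 by the mean of per-cell CPM and 3 without cycling cells. Genes lower went from 12 to 5 with 4 markers, 4 without cycling cells and 7 in IgM cells. In plasma cells with no T cell marker, an alternative chosen after seeing the data, Ctla4 and Lag3 both kept their call. T cells, with 58 and 51 cells, and Tigit are limited by depth.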
